A study of Mus musculus with 2 samples.

Results

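The mitotic spindle and kinetochore genes are 39 genes named by symbol that carry a cell through mitosis, from the CDK1 switch to cytokinesis. All 39 were found among the 50508 genes of the deposited table, and none was chosen by its measured value. All 39 had a mean level of at least 1 FPKM (read number scaled to gene length and library size) over both libraries, so the filter on low values removed no gene. The cells were E14, a mouse embryonic stem cell line of strain 129/Ola at passage 15 to 18, grown without feeder cells on gelatin in 15% serum with 1000 U/ml of LIF, the cytokine that holds them undifferentiated. By their labels, both groups received an siRNA by lipid transfection, either a scramble control or one directed at Mettl8, with RNA prepared after 72 h. Each group is 1 library from 1 cell line. The series record mentions triplicates, but whether the 2 columns are pools of cultures is not stated. With 1 library per group no test between groups was possible, so no p-value is given and every interval below covers counting error only.

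Mitosis is driven by CDK1 bound to a B-type cyclin, which is switched on when CDC25 phosphatases remove the phosphates that WEE1 adds. Kinetochores, built on centromeres, hold the ends of spindle microtubules through the NDC80 complex. Unattached kinetochores keep the spindle assembly checkpoint active, which blocks CDC20, an activator of the anaphase-promoting complex (APC/C), until the chromosomes are aligned. Most of these genes are transcribed late in the cell cycle through promoter elements read by the MuvB complex with B-MYB and FOXM1. Mouse embryonic stem cells divide fast, with short gap phases, and transcribe many cell cycle genes throughout the cycle. RNA from a whole culture cannot tell more cells in mitosis from more RNA per cell.

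The library labels carry a limit that touches each direction below. Mettl8, the target of the siRNA, was 0.67 FPKM in the library with the scramble siRNA label (scramble-labelled below) and 100.3 FPKM in the one with the Mettl8 siRNA label (Mettl8-labelled). The targeted gene thus goes against its label, and by this measure the Mettl8-labelled library is not a knockdown. Each difference is the Mettl8-labelled minus the scramble-labelled value. Whether labels or columns were exchanged was not tested, and an exchange would reverse every direction given. Of 12 embryonic stem cell markers, 12 were above 1 FPKM, with summed levels of 1545 and 1507 FPKM, scramble-labelled first as in every pair of values below. Of 12 fibroblast markers 2 reached a mean of 1 FPKM, Fn1 (34.4 and 29.2) and Tagln (1.18 and 1.03), and the list summed to 37.0 and 31.4; Col3a1 and Lum were listed at 0 and 0.01. Of 12 markers of differentiated lineages 2 did, Tubb3 and Neurod1, with sums of 22.4 and 22.7 FPKM. The genes of the table held 22211850 and 21416736 rebuilt reads, of which the 39 genes held 95640 and 95285. That is 0.683% and 0.689% of the reads of protein-coding genes. Single genes had between 264 and 8484 reads, and 29 of the 39 had at least 1000 in both libraries.

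Most of the promoters searched held an element through which genes of this kind are known to be transcribed. Its frequency among them is thus not independent of their choice as mitotic genes. The cell cycle homology region, with the letters TTTGAA or its variant TTCGAA, is the element that the MuvB complex reads, and CCAAT boxes, bound by NF-Y, often lie upstream of it. RefSeq promoter windows on GRCm38.p6, from 250 bases before to 50 bases after a start site, were found for 31 of the 39 genes, in 34 windows. Aurkb, Cdc25c, Foxm1, Incenp, Kif20a, Spc24, Tpx2 and Wee1 had no entry. The windows of 5 genes are printed below, 5' to 3' on the strand of the gene, with matches to TTTGAA on either strand and to TTCGAA, which reads the same on both, in capitals. They are the most abundant gene (Cdc20), the classical example Ccnb2, the gene with the largest difference upwards (Kif11), the gene with an entry that had the largest difference downwards (Cdc25b), and Mad2l1, the gene with the next largest difference upwards, which holds no match in its window. The RefSeq start of Mad2l1 lies upstream of the GENCODE M21 gene start at 66535390, which is outside the window, so the letters around that start were not searched.
Cdc20 (chr4:118437294-118437593, minus strand): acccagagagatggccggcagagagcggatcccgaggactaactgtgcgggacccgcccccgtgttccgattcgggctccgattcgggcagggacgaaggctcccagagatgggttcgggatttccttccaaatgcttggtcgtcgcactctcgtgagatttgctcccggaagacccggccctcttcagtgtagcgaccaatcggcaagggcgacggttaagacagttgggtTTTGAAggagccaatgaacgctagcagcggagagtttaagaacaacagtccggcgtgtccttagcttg
Ccnb2 (chr9:70421505-70421804, minus strand): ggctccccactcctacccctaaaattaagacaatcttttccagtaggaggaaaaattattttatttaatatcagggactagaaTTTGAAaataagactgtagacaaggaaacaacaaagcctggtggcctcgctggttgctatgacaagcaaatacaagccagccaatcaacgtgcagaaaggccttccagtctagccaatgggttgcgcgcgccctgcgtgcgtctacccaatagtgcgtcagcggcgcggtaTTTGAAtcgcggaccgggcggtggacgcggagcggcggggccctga
Kif11 (chr19:37376132-37376431, plus strand): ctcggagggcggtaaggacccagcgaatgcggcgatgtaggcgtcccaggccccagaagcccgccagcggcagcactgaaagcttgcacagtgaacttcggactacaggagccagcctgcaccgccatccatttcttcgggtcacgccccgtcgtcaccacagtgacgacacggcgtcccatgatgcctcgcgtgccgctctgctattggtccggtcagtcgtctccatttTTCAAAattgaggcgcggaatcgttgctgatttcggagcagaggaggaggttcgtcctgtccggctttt
Cdc25b (chr2:131186698-131186997, plus strand): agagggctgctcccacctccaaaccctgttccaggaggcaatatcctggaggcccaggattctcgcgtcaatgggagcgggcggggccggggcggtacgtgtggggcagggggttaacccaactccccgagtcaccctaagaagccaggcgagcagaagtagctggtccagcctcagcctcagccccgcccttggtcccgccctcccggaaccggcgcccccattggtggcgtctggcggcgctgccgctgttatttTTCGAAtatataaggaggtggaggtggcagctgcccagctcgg
Mad2l1 (chr6:66534971-66535270, plus strand): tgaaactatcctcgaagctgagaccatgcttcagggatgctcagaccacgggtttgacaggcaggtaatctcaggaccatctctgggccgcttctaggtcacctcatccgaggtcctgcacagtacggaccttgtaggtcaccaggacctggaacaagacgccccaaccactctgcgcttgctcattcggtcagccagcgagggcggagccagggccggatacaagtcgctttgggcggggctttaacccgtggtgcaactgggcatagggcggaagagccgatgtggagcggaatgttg

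Either form was present in 26 of the 34 windows (76.5%), against 13.9% of the 9882 windows of protein-coding genes with a mean of at least 1 FPKM and 19.2% of all 32851 windows. Within 50 bases of the start site the share was 70.6%, against 3.74% and 5.31%. Matches that overlap one another were counted separately. At least 1 CCAAT on either strand was found in 76.5% of the windows of the 39 genes and in 38.8% of those of protein-coding genes. A match near the start together with a CCAAT occurred in 64.7% and 1.85%. The median GC content of the windows was 58.8% for the mitotic genes and 61.3% for protein-coding genes. The windows of the DNA replication genes, a list of S-phase genes of the same dividing cells, held the element near the start in 4.65% and a CCAAT in 58.1%. Those of 87 other mitotic genes held it near the start in 27.0%. No test was made of these shares, and a match describes letters, not a bound site.

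Of the 26 windows with a match, 24 had one within 50 bases of the start, and 20 of the 22 genes with it there also held a CCAAT. The windows with a match only farther away were that of Kif2c, at -103 bases from the start, and a second Bub3 window, at -167. Some windows with a match near the start held farther ones as well, such as Ccnb2 at -167 and Top2a at -179. In Ccnb2 a match began 4 bases after the start, in Cdc20 at -18 and in Kif11 at -19. Bub1 and Cdc25b held only the variant form, 14 and 7 bases after the start. By gene, 22 of the 31 had the element within 50 bases of a start, and 9 had not: Birc5, Cdc25a, Cenpe, Fzr1, Kif2c, Mad2l1, Nuf2, Plk4 and Pttg1. The end of the window was found in a GENCODE M21 transcript of the gene for 28 of the 34 windows. It was not found for Aurka, Kif11, Kif23, Kif2c, Mad2l1 and Plk4, of which Kif2c, Mad2l1 and Plk4 are among the 9. The Kif2c window lies downstream of the GENCODE M21 gene start at 117182639, and the letters around that start were not searched. The median level in the scramble-labelled library was 17.5 FPKM for the 22 (3.81 to 88.2) and 10.6 FPKM for the 9 (3.21 to 21.03), so the ranges overlapped. The median difference between libraries was 0.024 on the log2 scale for the 22, of which 15 were higher, and 0.0082 for the 9, of which 5 were higher.

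**Figure D1:**
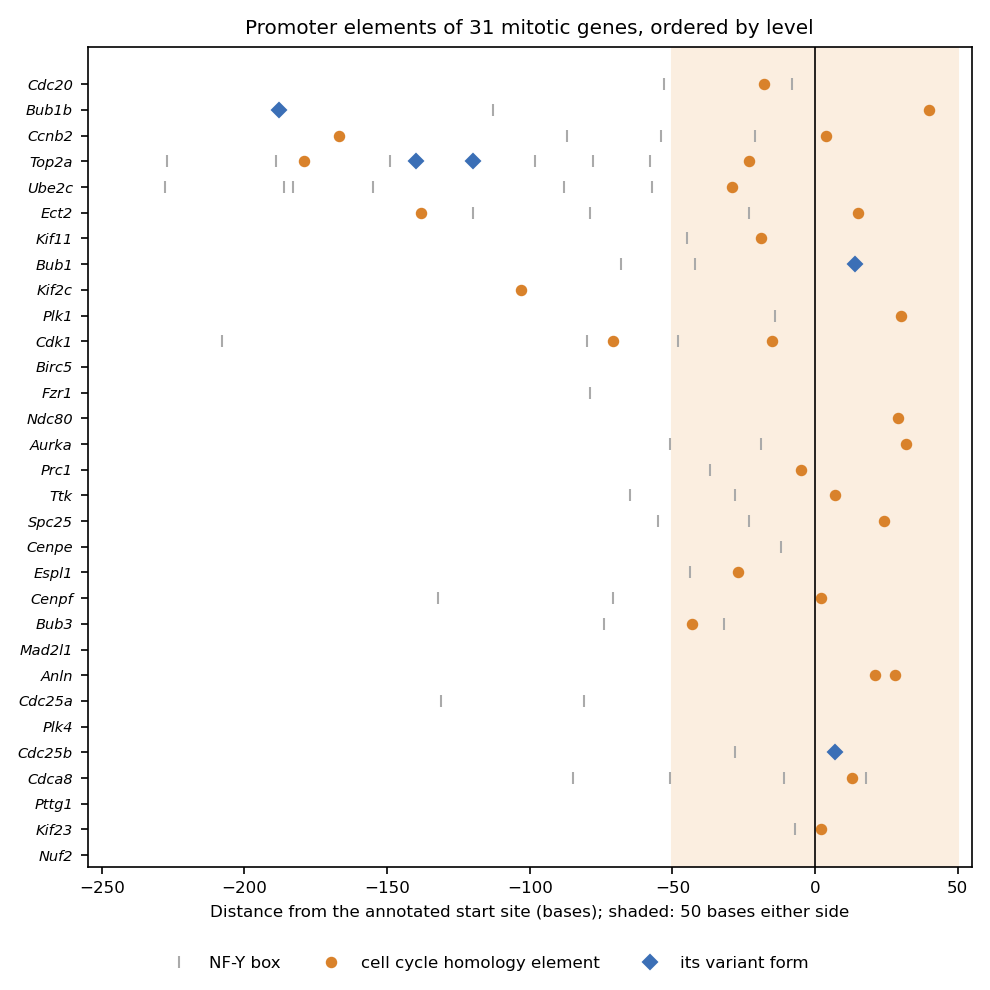
Positions of promoter elements in 1 RefSeq window for each of 31 genes, ordered from the highest level (top) to the lowest in the scramble-labelled library; the x axis is the distance in bases of the first base of a match from the start site. Circles and diamonds mark the cell cycle homology region and its variant, bars mark NF-Y boxes, and most circles fall in the shaded 50 bases on either side of the start.

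Transcripts of all 39 genes were at nearly the same level in both libraries. Differences are given on the log2(FPKM + 1) scale, which slightly understates those of low genes. A 1.2-fold rule was passed upwards by 0 of the 39 and downwards by 0. Of all 13243 genes with a mean of at least 1 FPKM, 4.48% passed it upwards and 5.04% downwards. At 1.5-fold the shares over all genes were 1.07% and 1.06%, again with 0 of the 39 in either direction. Among the 6483 protein-coding genes in the level range of the 39, the shares were 0.864% and 1.11%, so a count of 0 among 39 is near the background. The median difference of the 39 was 0.0084, with 23 higher and 16 lower, against 0.013 over all 13243 genes. Higher genes made up 59.0% of the 39, 54.1% of all genes and 58.7% of protein-coding genes in the same level range. The split moves with the scaling: 34 of 39 were higher with the FPKM sums set equal, 28 with sums over genes of at least 200 bases set equal, 19 with the median ratio of all genes set to 0, and 15, with 24 lower, after subtraction of GC medians as described below. The median over all genes also moved, to 0.089 with equal FPKM sums and 0.053 with equal sums over genes of at least 200 bases. That of the 39 was then 0.097 and 0.055. Shares of all genes that were higher under these scalings were not computed. With equal FPKM sums 2 of the 39 passed 1.2-fold upwards, where 8.72% of all genes did. The differences ran from -0.14 for Incenp to 0.20 for Kif11, with a standard deviation over genes of 0.081. Counting alone would give 0.055, and the protein-coding genes of the same level range, without Mettl8, had 0.106.

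Counting intervals of the ratio, exact Clopper-Pearson at 95%, excluded 1 for 10 of the 39 genes. Above 1 lay 7 of them (17.9%), Kif11, Mad2l1, Ndc80, Birc5, Tpx2, Prc1 and Top2a, and below 1 lay 3 (7.69%), Incenp, Espl1 and Cdc25a. Over the protein-coding genes of the same level range the shares were 17.5% and 8.45%. These intervals compare 2 libraries and hold no spread between cultures. They were computed at the deposited scaling only, and which genes they name depends on that scaling. The lower limits of Birc5 and Prc1 were both 1.001, and the upper limit of Cdc25a was 0.992.

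**Figure D2:**
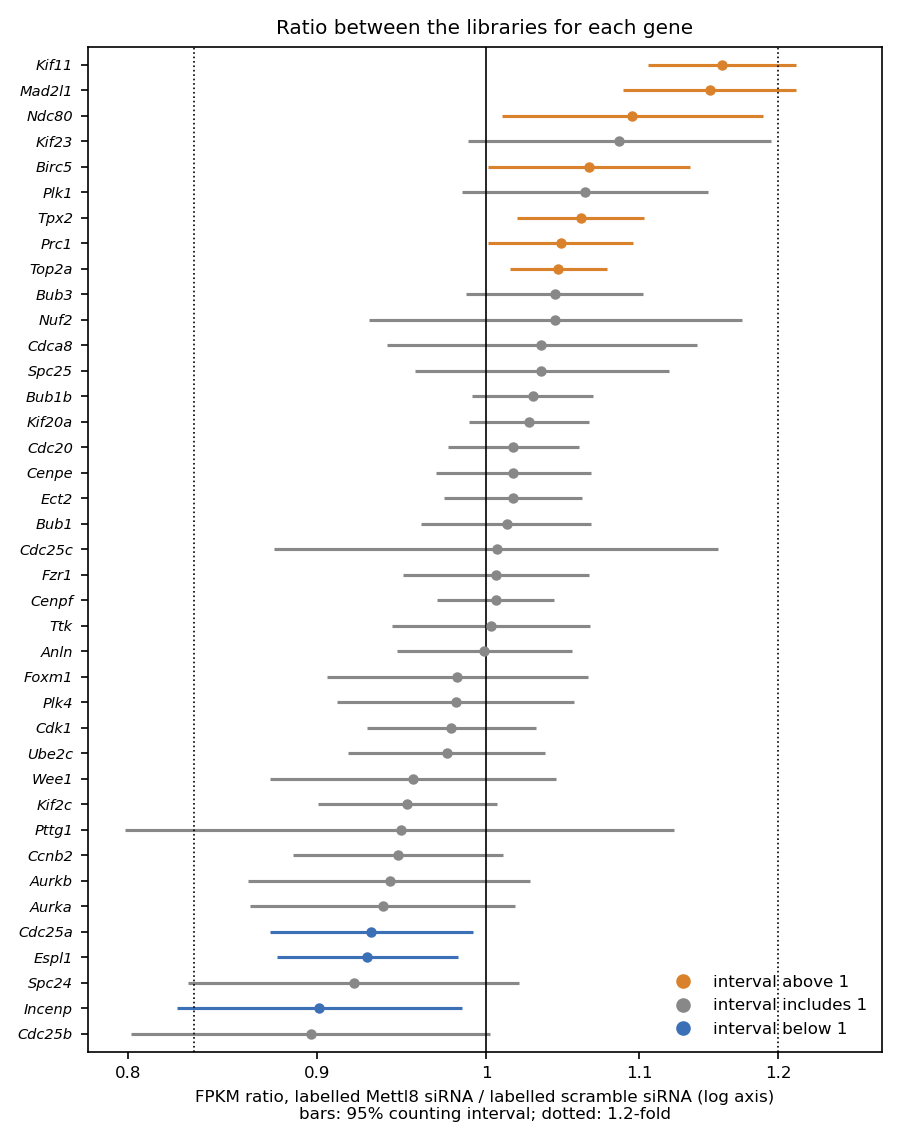
FPKM ratio of the Mettl8-labelled library to the scramble-labelled library for each of the 39 genes, on a log axis, with its 95% counting interval. No point reaches the dotted lines at 1.2-fold, and the ratios run from 0.897 (Cdc25b) to 1.16 (Kif11).

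Of the genes of the CDK1 switch, 5 of 6 were lower in the Mettl8-labelled library, each by less than 1.2-fold. The direction turned with equal FPKM sums, where 4 of 6 were higher. With equal sums over genes of at least 200 bases 4 of 6 were lower. All 6 were lower with the median ratio set to 0, and also with GC medians subtracted. Ccnb2, which encodes cyclin B2, was 43.5 FPKM in the scramble-labelled library and 41.1 in the Mettl8-labelled library. Cdk1, the kinase itself, was 20.4 and 19.95 FPKM. Both levels of Cdk1 lay within each other's counting intervals, and the ratio was 0.978 (0.928 to 1.03). Wee1, the kinase that holds CDK1 off, was 10.6 and 10.1 FPKM. Per deposited gene length, the transcripts of its opponents, the CDC25 phosphatases, were below that of Wee1. Per kilobase of the reference transcript, the principal protein-coding one, Cdc25a (19.7) was above Wee1 (10.6) in the scramble-labelled library. Cdc25a was 8.94 and 8.32 FPKM, a ratio of 0.931 (0.874 to 0.992). Cdc25b was 6.39 and 5.73 FPKM, a ratio of 0.897 (0.802 to 1.002). Cdc25c was 7.58 and 7.63 FPKM and was the 1 gene of the group that was not lower. The median difference of the group was -0.069, and the median GC content of its transcripts was 49.5%. That difference was 0.020 with equal FPKM sums and -0.022 with equal sums over genes of at least 200 bases. With the median ratio set to 0 it was -0.082, and with GC medians subtracted -0.087.

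The mitotic kinases were split. Plk1, the Polo-like kinase that acts from mitotic entry to cytokinesis, was 20.99 and 22.3 FPKM. Aurka, the kinase of spindle poles, was 16.8 and 15.7 FPKM, and Aurkb, the kinase of the chromosomal passenger complex, was 12.7 and 11.95. Plk4, which starts centriole duplication, was 7.51 and 7.37 FPKM. Plk1 was thus higher and the other kinases lower, and the counting interval of each of the 4 ratios included 1. All 4 were higher with equal FPKM sums, and 2 of 4 with equal sums over genes of at least 200 bases. With the median ratio set to 0, and also with GC medians subtracted, 1 of 4 was higher.

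The partners of AURKB in the chromosomal passenger complex differed in sign, in each scaling tried. Incenp, the scaffold that binds and activates the kinase, had 1067 and 940 reads and was 11.7 and 10.5 FPKM, a ratio of 0.901 (0.825 to 0.985). It had the most negative log2 difference of the 39 genes. Incenp (ENSMUSG00000024660, 18 exons in its reference transcript) spans chr19:9872296-9899551 on the minus strand of GRCm38. Birc5, which encodes survivin, was 19.8 and 21.1 FPKM, a ratio of 1.07 (1.001 to 1.14). Cdca8, which encodes borealin, was 5.70 and 5.90 FPKM. Birc5 and Cdca8 were thus higher where Incenp was lower.

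All 5 genes of the spindle assembly checkpoint were higher in the Mettl8-labelled library, 4 of them by less than 1.05-fold, and 4 of 5 with the median ratio set to 0. Mad2l1, whose product MAD2 binds and inhibits CDC20, had 2536 and 2849 reads and was 10.6 and 12.2 FPKM, a ratio of 1.15 (1.09 to 1.21). Mad2l1 (ENSMUSG00000029910, 6 exons in its reference transcript) spans chr6:66535390-66547220 on the plus strand of GRCm38. Bub1b, which encodes BUBR1, was 44.7 and 46.0 FPKM, and Bub1, a kinase that recruits checkpoint proteins to kinetochores, was 22.6 and 22.9. Bub3, the partner that brings BUB1 and BUBR1 to kinetochores, was 12.8 and 13.4 FPKM, and Ttk, the kinase MPS1 at the head of the checkpoint, was 14.9 and 14.9. Of the 5, Mad2l1 had a counting interval that excluded 1. The transcripts of this group were poor in GC (median 43.0%), and after subtraction of the median of protein-coding genes of similar GC content 3 of 5 were higher.

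The target of the checkpoint was the most abundant of the 39 genes. Cdc20 was 88.2 FPKM in the scramble-labelled library (85.6 to 90.7, exact Poisson interval) and 89.6 in the Mettl8-labelled library, above 98.0% of protein-coding genes with a mean of at least 1 FPKM. Cdc20 (ENSMUSG00000006398, 10 exons in its reference transcript) spans chr4:118432901-118437352 on the minus strand of GRCm38. Fzr1, which encodes CDH1, the APC/C activator of late mitosis and G1, was 18.3 and 18.4 FPKM. Ube2c, the ubiquitin-conjugating enzyme that works with the APC/C, was 28.7 and 28.0 FPKM. Exons of Ube2c share 592 bases, 22.8% of their length, with Tnnc2 on the opposite strand. Tnnc2 was listed at 0.40 and 0.18 FPKM, and the strand setting of the counting is not given in the sources used here.

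The 4 subunits of the NDC80 complex, which bind one another in equal numbers, had unequal transcript levels. Ndc80, which encodes the microtubule-binding subunit HEC1, was 18.2 and 19.97 FPKM, a ratio of 1.095 (1.01 to 1.19). Its direct partner Nuf2 was 3.21 and 3.35 FPKM, per deposited gene length the lowest of the 39 genes in both libraries. Spc25 was 13.7 and 14.2 FPKM. Spc24 was 10.7 and 9.81 FPKM, a ratio of 0.921 (0.830 to 1.02). Spc24 was thus the 1 subunit that was lower, and its interval included 1, while with GC medians subtracted Ndc80 alone was higher. How far the gap between Ndc80 and Nuf2 depends on the gene length used is shown with the levels below. Cenpe, a kinetochore kinesin that gathers chromosomes at the spindle equator, was 13.6 and 13.9 FPKM, and Cenpf, a large protein of the outer kinetochore, was 13.5 and 13.6. With GC medians subtracted 0 of these 2 were higher.

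Among the motors and spindle assembly factors was the largest difference of the 39 genes. Kif11, which encodes the kinesin-5 motor EG5 that pushes spindle poles apart, had 3470 and 3929 reads and was 25.3 and 29.3 FPKM. Its ratio was 1.16 (1.11 to 1.21). Kif11 (ENSMUSG00000012443, 22 exons in its reference transcript) spans chr19:37376403-37421859 on the plus strand of GRCm38. Tpx2, which targets and activates AURKA on spindle microtubules, was 36.4 and 38.6 FPKM, while Kif2c, the microtubule-depolymerizing kinesin MCAK, was 21.03 and 20.02. Tpx2 and its client kinase Aurka thus differed in opposite directions, each by less than 1.1-fold; with equal FPKM sums both were higher. Kif11 and Mad2l1 were the 2 genes that passed a 1.1-fold rule chosen after seeing the data, and Incenp, exactly at the limit, was the 1 gene lower by that much. As a plain FPKM ratio, Cdc25b passed it too, which makes 2 higher and 2 lower. On the log2(FPKM + 1) scale 14.2% of all genes were that much higher and 13.8% lower, and of protein-coding genes in the same level range 10.2% and 7.17%.

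Chromosome separation and cytokinesis genes also stayed close. Top2a, the topoisomerase that untangles sister chromatids, was 32.4 and 33.8 FPKM. Espl1, which encodes separase, the protease that cuts cohesin, was 13.6 and 12.6 FPKM, a ratio of 0.929 (0.878 to 0.983), and its inhibitor securin, the product of Pttg1, was 5.01 and 4.75. Both transcripts were thus lower in the Mettl8-labelled library, except that Pttg1 was higher with equal FPKM sums, the latter on 285 and 264 reads, the fewest of the 39 genes. Of the 5 cytokinesis genes 4 were higher, 5 with either rescaling of the sums and 3 with GC medians subtracted. Kif20a, the kinesin MKLP2 that carries the passenger complex to the central spindle, was 51.6 and 53.0 FPKM. Kif23, the kinesin of the centralspindlin complex, was 3.81 and 4.14 FPKM, a ratio of 1.09 (0.989 to 1.19). Ect2, the exchange factor that activates RHOA at the cleavage furrow, was 27.4 and 27.9 FPKM, and Prc1, which bundles the microtubules of the central spindle, was 16.0 and 16.7. Anln, which encodes the furrow scaffold anillin, was 10.3 in both. Foxm1, the forkhead factor that activates many of these promoters, was 7.36 and 7.23 FPKM.

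**Figure D3:**
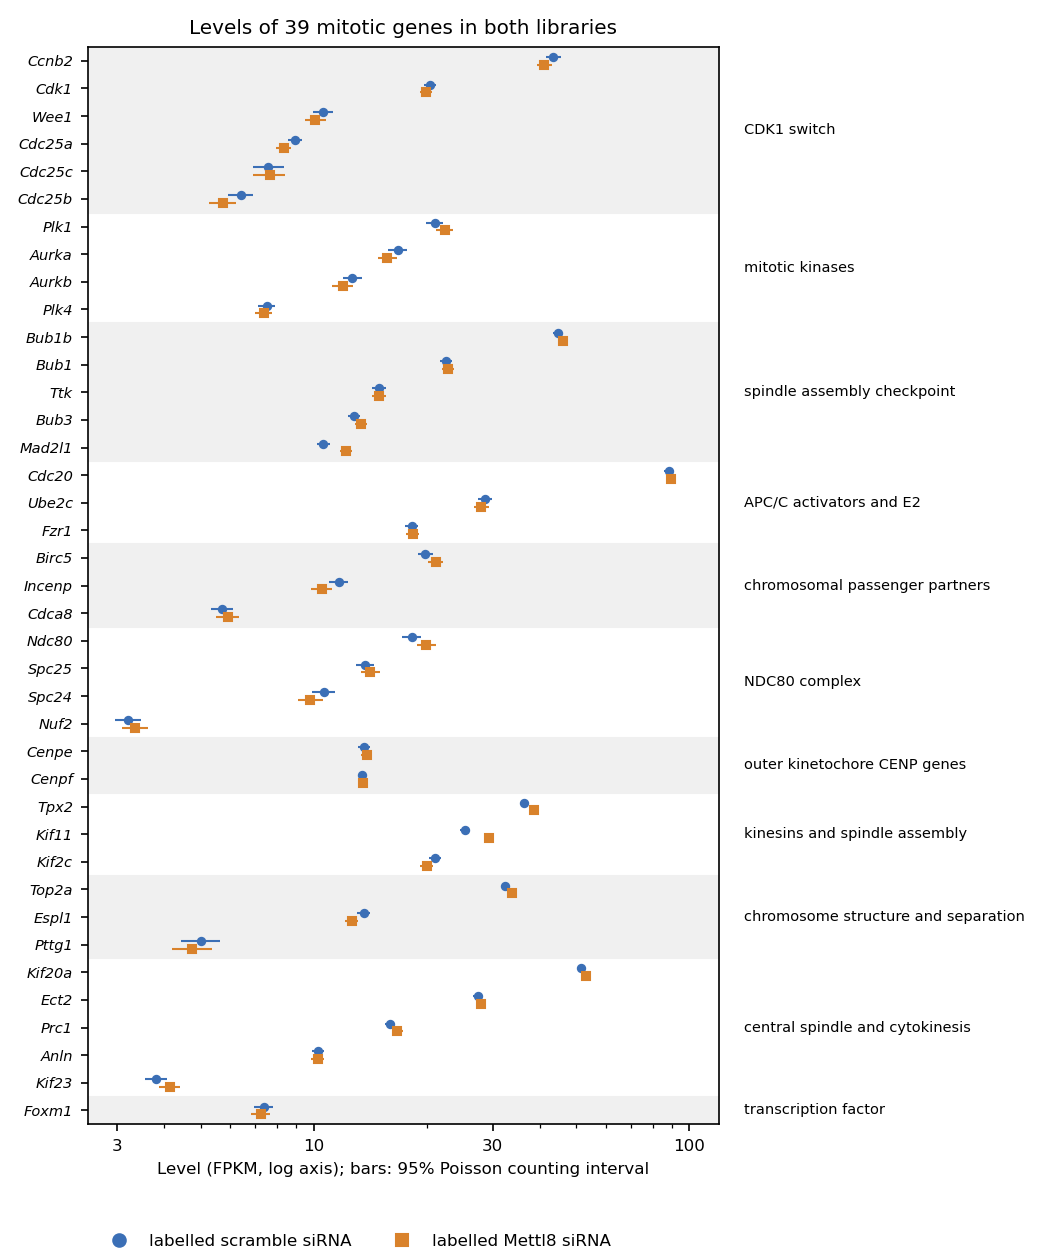
Levels of the 39 genes in FPKM on a log axis, grouped by role, with circles for the scramble-labelled library, squares for the Mettl8-labelled library and 95% Poisson counting intervals. Cdc20 is highest at 88.2 and 89.6 and Nuf2 lowest at 3.21 and 3.35, and within each gene the symbols lie close together compared with the spread between genes.

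The order of the levels was close to the same in both libraries. The rank of 37 of the 39 genes moved by at most 2 places. In the scramble-labelled library the order ran from Cdc20, Kif20a, Bub1b, Ccnb2, Tpx2 and Top2a down to Cdca8, Pttg1, Kif23 and Nuf2. For 26 of the 38 pairs of neighbours in that order the counting intervals overlapped, among them the whole stretch from Bub1 (22.6 FPKM) to Anln (10.3). The median of the 39 was 13.7 and 14.2 FPKM, against 5.25 and 5.32 over protein-coding genes with a mean of at least 1 FPKM.

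Levels between genes depended on the gene length used. The deposited length equalled the union of all exons in GENCODE M21 for 33 of the 39 genes, and for the other 6 (Cdc25c, Espl1, Incenp, Kif11, Kif20a and Ndc80) it was shorter. Those 6 lie on chromosomes 15, 17, 18 and 19. Among protein-coding genes passing the same level filter, the lengths were equal for 98.9% of 7023 on other chromosomes and for 38.0% of 2942 on chromosomes 12 to 19. For 10 genes the deposited length was at least 2 times that of the reference transcript, the principal protein-coding transcript. Expressed per kilobase of that transcript, Ube2c went from 28.7 to 77.1 and Birc5 from 19.8 to 71.2 FPKM in the scramble-labelled library, while Ndc80 remained at 18.2. Nuf2 went from 3.21 to 8.46, so the gap within the NDC80 complex narrowed, and Spc25, at 36.6, then exceeded Ndc80. Cdc25c, at 7.56, was then the lowest of the 39 in place of Nuf2. Principal transcripts of differing length leave Cdk1 between 23.0 and 80.3 and Mad2l1 between 11.8 and 51.7. Ratios between the libraries do not depend on the length.

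**Figure D4:**
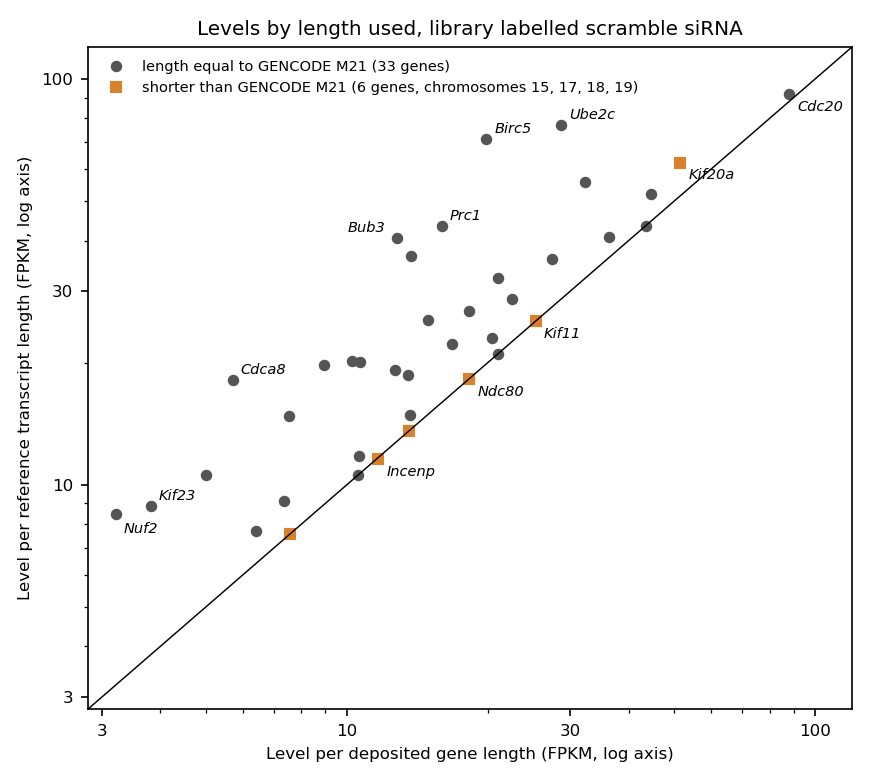
Level of each of the 39 genes in the scramble-labelled library, per deposited gene length (x axis) and per reference transcript length (y axis), both in FPKM on log axes, with the line of equality. Squares mark the 6 genes with a deposited length shorter than in GENCODE M21, which lie on or near the line (farthest Kif20a, at 51.6 and 62.2), while genes such as Birc5 (19.8 and 71.2) lie far above it.

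Base composition moved with the differences. Across the 39 genes the difference and the GC content of the reference transcript had a Spearman rho of -0.44 and a Pearson r of -0.48, values over genes of the same 2 libraries, which are not independent replicates. Over all 9965 protein-coding genes with a mean of at least 1 FPKM rho was -0.30. Their median difference went from 0.061 in the decile poorest in GC to -0.051 in the richest. Of the 12 mitotic genes under 45% GC 11 were higher, and of the 17 at 50% or more 7 were. The decile from 41.9% to 44.5% GC, which held 9 of the 12, had a median of 0.049 and quartiles of -0.011 and 0.104. Most protein-coding genes in that decile were thus higher too. Shares over all protein-coding genes in these 2 GC ranges were not computed. Kif11 (42.2% GC) and Mad2l1 (40.1%) were poor in GC, and Incenp (54.5%) and Cdc25b (54.2%) rich. After the median of protein-coding genes in the same GC decile was subtracted, a step chosen after seeing the data, the log2 difference of Kif11 was 0.16, of Mad2l1 0.12, of Ndc80 0.076, of Cdc25b -0.13 and of Incenp -0.12. The part of base composition in the remaining differences was not tested.

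**Figure D5:**
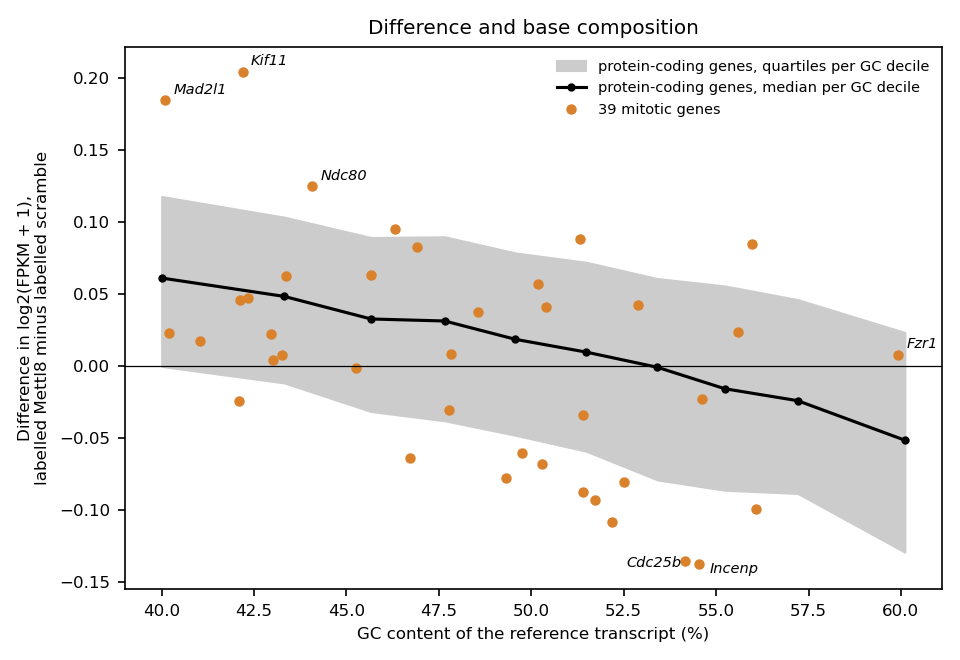
Difference in log2(FPKM + 1) between the libraries against the GC content (%) of the reference transcript for the 39 genes (points), with the median and quartiles of protein-coding genes in 10 GC classes. Both the background and the points decline from left to right, and Kif11 and Mad2l1 lie above the upper quartile.

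Other genes of the same machinery, a list of 105 that holds none of the 39, were also close in both libraries. Of the 104 with a mean of at least 1 FPKM, 74 were higher (71.2%), 28 lower and 2 equal, with a median difference of 0.041. Among protein-coding genes in the level range of the 39, 58.7% were higher. None of the 104 passed 1.2-fold in either direction in log2(FPKM + 1). As plain FPKM ratios 3 reached 1.2, those of Cenpw, Haus3 and Anapc15. Cenpw, which encodes a histone-fold protein of the inner kinetochore, had the largest difference at 3.01 and 3.77 FPKM, and is named here after its values were seen, since the rule for naming asked for a mean of at least 5 FPKM. Among genes with a mean of at least 5 FPKM, the largest differences included those of Haus3 and Haus6, subunits of the augmin complex that branches spindle microtubules, at 5.97 and 7.25 and at 10.8 and 12.5 FPKM. Of the other HAUS genes of the list, Haus1 (20.3 and 19.8) and Haus5 (4.70 and 4.34) were lower and the rest higher. Anapc15, an APC/C subunit, was 4.85 and 5.82 FPKM. Trip13, the ATPase that remodels MAD2, was 9.98 and 11.5 FPKM, so Mad2l1 and Trip13 were both higher in the Mettl8-labelled library. Mad1l1, another checkpoint gene, was lower at 8.28 and 7.81 FPKM. Ska1, a microtubule-binding kinetochore protein, was 4.73 and 5.50 FPKM, and Cenpm, of the inner kinetochore, 10.1 and 11.6. The median GC content of this list was 46.6%, and with the GC medians subtracted its median was 0.0090, with 56 of 100 higher.

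The DNA replication genes, which act earlier in the cycle, had a median difference of 0.056, with 32 of 42 higher (76.2%) and 10 lower. Over all genes 54.1% were higher. Rescaled or GC-adjusted medians are not given for this list. Rpa2, a subunit of the single-strand binding protein RPA, was 21.8 and 26.3 FPKM, and Pole2, a DNA polymerase epsilon subunit, 11.4 and 13.6. Fen1, the flap endonuclease, was 22.5 and 25.7 FPKM. As a plain FPKM ratio Rpa2 reached 1.21, the 1 gene of the list at 1.2 or more. Counting intervals lay above 1 for 12 genes and below 1 for 2, Cdt1 (29.6 and 26.4 FPKM) and Mcm4 (27.2 and 25.3). Cdt1 and Mcm4 are named here after their values were seen. The replication list and the mitotic genes share both libraries, and the gap between their medians was not tested.

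Reads of some of the 39 genes may not be theirs alone. Exons of 11 genes overlap those of another gene. The largest overlap was that of Kif20a with Cdc23, an APC/C subunit gene on the opposite strand at 12.5 and 13.3 FPKM, which covers 29.3% of the Kif20a exons. Prc1 overlaps Rccd1 on the opposite strand over 11.1%, and Cdc25c overlaps Gm3550 over 12.7%. These shares are of the GENCODE M21 exons. The deposited length was shorter for Kif20a (3796 against 4338 bases) and Cdc25c (1941 against 4919). Their overlaps may thus lie partly or wholly outside the exons counted. Without a stated strand setting, reads from overlapping exons cannot be told apart. For 31 of the 39 reference transcripts no annotated transcript of a gene elsewhere matched at 95% identity or more over at least 100 bases. Of the other 8, Ndc80 had the largest share covered, 22.9%.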

How the data were processed

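RNA sequencing of 2 libraries of E14 cells, 1 per group, was used. The deposited values are FPKM, rounded by the authors to 2 decimals, with 1 gene length per symbol. Per the submitters' processing notes, STAR 2.4.0i, featureCounts 1.5.0-p1 and the mm10 build were used; not given in the sources used here are the annotation, the strand setting and how reads mapping to several places were treated. FPKM times length fell on whole reads in each library (100% of 3121 and 3563 values of genes under 400 bases with fewer than 30 reads, within the rounding of the deposited value plus 0.005 reads, at most 0.15 reads in all), at denominators of 28460000 and 27815000 reads. Reads rebuilt from these steps, off by at most 2.20 for the 39 genes from rounding, gave the exact intervals, which cover counting error only.

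Differences are log2(FPKM + 1), with a mean of at least 1 FPKM as filter and 1.2-fold as fixed rule of size. With 1 library per group no test was made. Named are all 39 members, with intervals at least for the 5 highest and 5 lowest differences, and up to 6 members of each other list. A few more genes of the other lists are named outside this rule, after their values were seen. Members, lists and rules were chosen with earlier results of these data known. Positions, GC content, exon unions and reference transcripts (best APPRIS class, then transcript support, then length) come from GENCODE M21 on GRCm38, the assembly of mm10, and promoters from RefSeq on GRCm38.p6. Copies were sought with blastn 2.17.0. Python 3.11.15, pandas 2.3.3, numpy 2.4.6 and scipy 1.17.1 were used. The rebuilding of read depth, the differences and the coverage of the counting intervals were tested on simulated counts. The promoter, GC, overlap, copy and length steps were not. Tried in place of these settings were 0.1 as pseudocount, 3 rescalings, other filters on level and gene type, the plain FPKM ratio, other sizes and a GC correction.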

Additional observations from a re-analysis of the deposited data

How the results depend on the processing

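No gene of the 39 was 1.2-fold apart under a pseudocount of 0.1, as a plain FPKM ratio, without a filter, at a mean of at least 5 FPKM (36 genes), among protein-coding genes, with the median ratio set to 0, with GC medians subtracted or at a 1.5-fold rule. With each library rescaled to the same FPKM sum 2 were higher, against 8.72% of all genes, and at 1.1-fold 2 were higher and 1 lower. The median difference of 0.0084 became 0.097 with the same sum, 0.055 with the same sum over genes of at least 200 bases, -0.0049 with the median ratio set to 0 and -0.026 with GC medians subtracted. The median of the other mitotic genes, 0.041, became 0.126, 0.085, 0.027 and 0.0090 in the same order. Over all genes the median, 0.013, was 0.089 and 0.053 under the first 2 scalings. The signs of 11, 5, 4 and 8 of the 39 differences changed in the same order, and 0 with a pseudocount of 0.1. With 1 library per group the spread between cultures is unknown, and for the least abundant genes low read numbers limit the precision. Per kilobase of the reference transcript, 31 of 39 levels moved beyond their counting interval. No paired analysis was possible because each group has 1 library.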
